A study of Mus musculus with 6 samples.

Results

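Glutathione transferases were described here across the organ of Corti of mice that lack pejvakin and of wild-type mice. The 10 genes were Gsta4, Gstm1, Gstm2, Gstm5, Gstp1, Gstt1, Gsto1, Gstk1, Mgst1 and Mgst3. They were found by symbol among the probe sets that the platform annotation pairs with 1 gene, and each had 1 such probe set. They are 10 of the 19938 genes tested and stand beside 18 other measured genes of the transferase families. None lies on the chromosome of Pjvk. Another 2 probe sets that carry Gstp1 together with Gstp2 were not used.

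The arrays came from 3 samples of Pjvk-/- mice, in which the Pjvk gene is inactivated on both alleles (knockout), and 3 samples of Pjvk+/+ mice (wild-type). Both groups shared a C57BL/6J-129/Sv strain background and an age of postnatal day 15. Total RNA of the dissected organ of Corti, which carries the hair cells of the cochlea, was hybridised to an Affymetrix mouse gene array. The labels give neither the sex of the animals nor whether a sample pools several animals. P-values therefore reflect only how far these samples scatter, and that scatter could be technical. Nothing used here states the structure of the inactivated allele. The study's title concerns peroxisomes and sensitivity to sound, and the comparison addresses whether expression differs without pejvakin.

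Glutathione transferases join the tripeptide glutathione to reactive, electrophilic molecules, which makes them soluble and ready for export. The cytosolic enzymes fall into classes named alpha, mu, pi, theta and omega, the kappa enzyme sits in mitochondria and peroxisomes, and the microsomal enzymes are membrane proteins of a separate family called MAPEG. Many of the genes respond to the transcription factor NRF2, encoded by Nfe2l2, through antioxidant response elements. In the cochlea glutathione and its enzymes are known for the handling of reactive oxygen species and of ototoxic drugs.

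Array medians lay between 6.66 and 6.69 on the log2 scale. Markers of the dissected tissue were read as summed signals. The summed signal of 8 hair cell markers, in log2, ran from 13.05 to 13.11 in knockout arrays and from 13.01 to 13.05 in wild-type arrays. That of 8 supporting cell markers ran from 12.52 to 12.65 in knockout arrays and from 12.54 to 12.55 in wild-type arrays. Markers of other cells are given further on. The data hold no detection calls, and the lowest value of any probe set was 2.02, so a level above 0 does not show expression. The sum of 8 spiral ganglion neuron markers was higher still. It ran from 13.99 to 14.04 in knockout arrays and from 14.04 to 14.09 in wild-type arrays. These sums therefore do not describe how clean the dissection was. The Pjvk probe set read 4.42, 4.36 and 4.21 in knockout arrays, against 4.75, 5.06 and 4.96 in wild-type arrays, a log2 difference of -0.59 (SE 0.09, limma adjusted p = 0.105). All of these values lay below the array medians. Where the Pjvk probes lie relative to the inactivated part is not known here either, so this is a limited check of the labels.

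All 10 transferases had a lower mean in the knockout, each by a small amount. The log2 fold changes of knockout over wild-type ran from -0.26 for Mgst3 to -0.05 for Gsto1, with a median of -0.12. None of the 10 passed limma's test at an adjusted p under 0.05, where 0.0351% of all genes passed, and the smallest adjusted p was 0.301, for Mgst1. At an unadjusted p under 0.05 stood 1 of the 10, again Mgst1, against 12.4% of all genes. The groups did not overlap for 2 of the 10, Gstm1 and Mgst1, against 17.8% of all genes, so that share was near the background.

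A lower mean was common among genes of like level. Over all genes 53.8% had a lower mean in the knockout and the median log2 fold change was -0.01. Among the genes at or above the median level, 72.1% had a lower mean, with a median of -0.04, and among the dimmer genes 3540 of 9969 did. Of the 10 transferases 7 belong to that brighter part and 3, Gstm2, Gstt1 and Gsto1, do not. The 10 genes were chosen with results of these arrays known, so they were given no test as a set. In whole-tissue RNA, fewer cells of a type and less RNA per cell cannot be told apart.

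**Figure D1:**
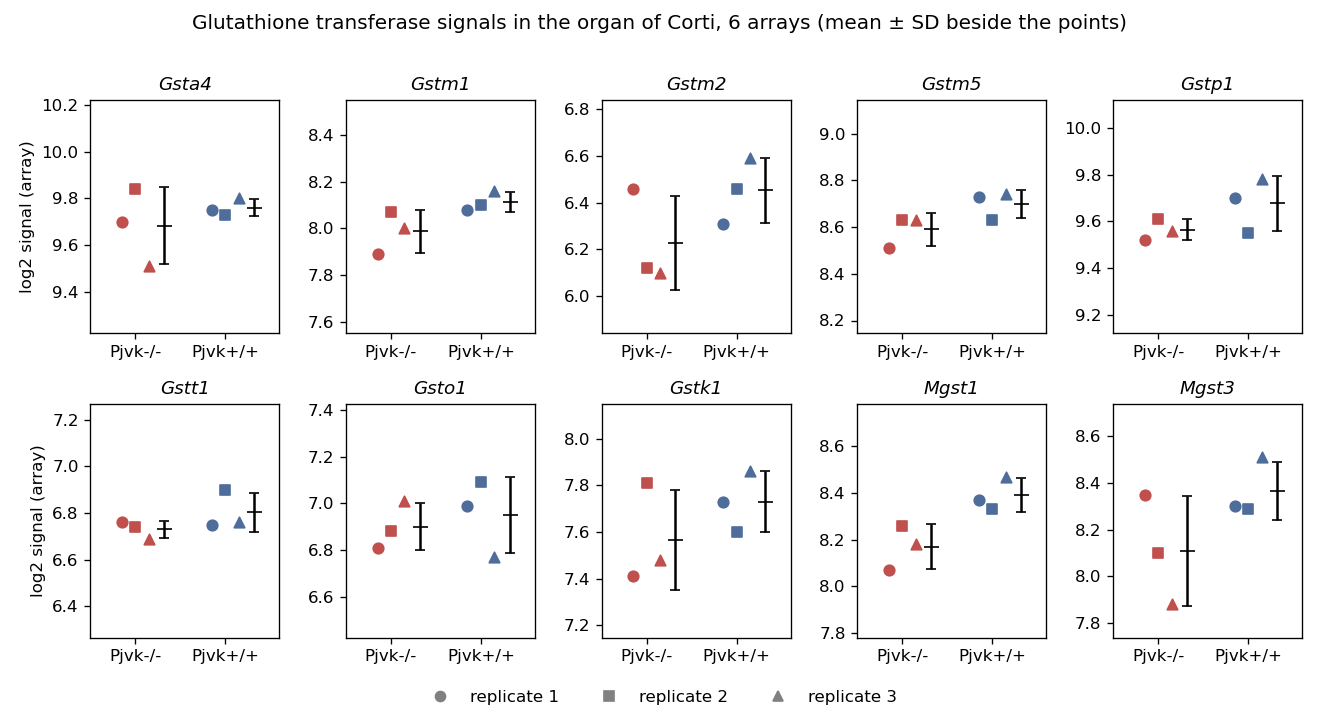
The log2 array signal of each of the 10 genes (vertical axes, all spanning the same range) in the 3 Pjvk-/- arrays (red, left) and the 3 Pjvk+/+ arrays (blue, right), with replicates by symbol and the mean ± SD in black. The groups are apart in Gstm1 and Mgst1 and overlap or touch in the other 8 panels.

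Mgst1 encodes a trimeric membrane enzyme of the endoplasmic reticulum and the outer mitochondrial membrane that conjugates glutathione and reduces lipid hydroperoxides. Its probe set 10542470 read 8.07, 8.26 and 8.18 in knockout arrays and 8.37, 8.33 and 8.47 in wild-type arrays. The highest knockout array lay below the lowest wild-type array. The difference was -0.22 (SE 0.07, 95% interval -0.38 to -0.06), or 85.9% of the wild-type signal. It had an adjusted p of 0.301 in limma and an exact two-sided permutation p of 0.1, the smallest that 3 arrays against 3 allow.

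Mgst3, a second microsomal enzyme with peroxidase and leukotriene C4 forming activity, had the largest of the 10 differences and an uneven knockout group. Probe set 10359861 read 8.35, 8.10 and 7.88 in knockout arrays and 8.30, 8.29 and 8.51 in wild-type arrays. Knockout replicate 1 lay among the wild-type arrays and knockout replicate 3 lay far below them. The mean difference was -0.26 (SE 0.12, adjusted p = 0.410). Without knockout replicate 3 it was -0.14, and without knockout replicate 1 it was -0.38.

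A start region of the Mgst1 gene is shown because this gene stood furthest apart relative to its error. That of Gstm5 is shown because it is the other member with a window that holds the searched motif. The motif was the core of the antioxidant response element, TGACNNNGC, searched on both strands of windows that reach 250 bases before and 50 bases after an annotated start. RefSeq windows on GRCm38.p6 were matched for 9 of the 10 genes, with 11 windows in all, and Gsta4 was not matched. The motif stood in 2 of these 11 windows, against 12.4% of the 32851 windows of the table. Mgst1 had 2 windows, and the one not shown (chr6:138141337-138141636, plus strand) held no match. Capitals mark the match, which in Mgst1 (chr6:138140277-138140576, plus strand) lies on the opposite strand and in Gstm5 (chr3:107895604-107895903, plus strand) on the strand of the gene. The match in Mgst1 begins 56 bases and that in Gstm5 42 bases before the start. A match describes letters and is no evidence of binding. Both sequences run 5′ to 3′.
Mgst1: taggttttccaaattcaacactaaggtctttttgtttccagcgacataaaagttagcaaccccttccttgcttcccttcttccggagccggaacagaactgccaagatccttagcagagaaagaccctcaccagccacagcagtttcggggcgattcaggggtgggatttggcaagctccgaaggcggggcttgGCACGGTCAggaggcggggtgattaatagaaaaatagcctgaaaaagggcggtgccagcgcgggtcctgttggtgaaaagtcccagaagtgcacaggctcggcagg
Gstm5: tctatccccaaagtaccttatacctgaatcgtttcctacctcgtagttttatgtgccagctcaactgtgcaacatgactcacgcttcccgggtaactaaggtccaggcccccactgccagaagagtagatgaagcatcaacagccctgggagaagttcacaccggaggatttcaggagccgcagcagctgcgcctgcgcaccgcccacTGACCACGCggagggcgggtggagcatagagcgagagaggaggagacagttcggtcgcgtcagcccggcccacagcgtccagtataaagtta

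The mu class encodes cytosolic enzymes for a wide range of electrophiles, and its genes lie side by side on chromosome 3. Gstm1 read 7.89, 8.07 and 8.00 in knockout arrays and 8.08, 8.10 and 8.16 in wild-type arrays (probe set 10501229). The groups were apart, but by only 0.01 between the nearest arrays, and the difference was -0.13 (SE 0.06, adjusted p = 0.442, exact permutation p = 0.1). It was -0.08 without knockout replicate 1. Gstm2 read 6.46, 6.12 and 6.10 in knockout arrays and 6.31, 6.46 and 6.59 in wild-type arrays (probe set 10501222). Knockout replicate 1 matched the middle wild-type array, so the groups overlapped, and the difference was -0.23 (SE 0.11, adjusted p = 0.425). It was -0.34 without knockout replicate 1 and -0.16 without wild-type replicate 3. Gstm5, a mu enzyme best known from brain and testis, read 8.51, 8.63 and 8.63 in knockout arrays and 8.73, 8.63 and 8.74 in wild-type arrays (probe set 10495243). Wild-type replicate 2 stood level with the 2 higher knockout arrays, and the difference was -0.11 (SE 0.06, adjusted p = 0.484). It was -0.07 without knockout replicate 1.

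The 7 measured mu genes follow each other on the chromosome as Gstm5, Gstm7, Gstm6, Gstm3, Gstm2, Gstm1 and Gstm4, with no other protein-coding gene of the gene table between them. In that order their log2 fold changes were -0.11, -0.10, 0.01, -0.21, -0.23, -0.13 and 0.06. Thus 5 had a lower and 2 a higher mean, and none passed the test. The 2 with a higher mean were Gstm6, inside the row, and Gstm4, at its end. Gstm6 had a negative sign with quantile normalization (-0.03) and with cyclic loess (-0.03). These genes are close relatives, and cross-hybridization between their probe sets was not assessed.

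In the other cytosolic genes the genotypes overlapped. Gsta4, the alpha enzyme that conjugates the lipid peroxidation product 4-hydroxynonenal, read 9.70, 9.84 and 9.51 in knockout arrays and 9.75, 9.73 and 9.80 in wild-type arrays (probe set 10587315). Knockout replicate 2 was the highest of the 6 arrays and knockout replicate 3 the lowest. The difference of -0.08 (SE 0.08, adjusted p = 0.719) was 0.01 without knockout replicate 3.

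Gstp1, the pi enzyme, which also binds the stress kinase JNK, read 9.52, 9.61 and 9.56 in knockout arrays and 9.70, 9.55 and 9.78 in wild-type arrays (probe set 10464583). Wild-type replicate 2 lay among the knockout arrays. The difference was -0.11 (SE 0.07, adjusted p = 0.523). It was -0.06 without wild-type replicate 3 and -0.18 without wild-type replicate 2. The near-identical gene Gstp2 lies next to Gstp1, and the 2 signals cannot be told apart with certainty.

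Gstt1, a theta enzyme that acts on small halogenated compounds, read 6.76, 6.74 and 6.69 in knockout arrays and 6.75, 6.90 and 6.76 in wild-type arrays (probe set 10370000). Only wild-type replicate 2 stood clear of the knockout arrays, and the difference of -0.07 (SE 0.06, adjusted p = 0.631) was -0.025 without it. Gsto1, an omega enzyme with thioltransferase and dehydroascorbate reductase activity, read 6.81, 6.88 and 7.01 in knockout arrays and 6.99, 7.09 and 6.77 in wild-type arrays (probe set 10463836). Its groups overlapped fully, with the lowest array in the wild-type, and the difference was -0.05 (SE 0.09, adjusted p = 0.840). It was 0.02 without wild-type replicate 2.

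Gstk1, the kappa enzyme of mitochondria and peroxisomes, is the member tied to the organelle in the study's title. Probe set 10537712 read 7.41, 7.81 and 7.48 in knockout arrays and 7.73, 7.60 and 7.86 in wild-type arrays. Knockout replicate 2 exceeded 2 of the wild-type arrays, while the other 2 knockout arrays lay below all of them. The difference was -0.16 (SE 0.11, 95% interval -0.42 to 0.09, adjusted p = 0.555), and it was -0.285 without knockout replicate 2 and -0.085 without knockout replicate 1.

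**Figure D2:**
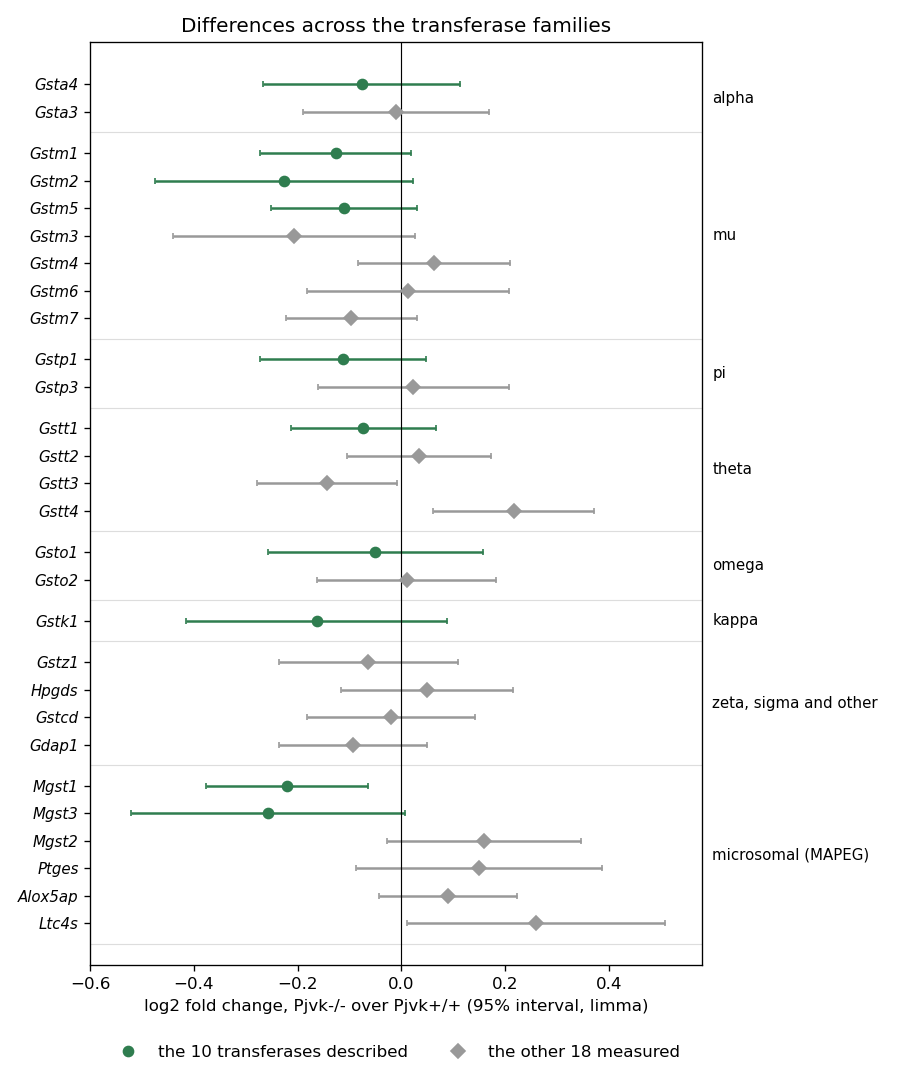
Log2 fold change of Pjvk-/- over Pjvk+/+ with its 95% interval from limma (horizontal axis) for the 10 genes described (green circles) and the other 18 measured transferase genes (grey diamonds), by class. The 10 lie left of 0, from -0.26 to -0.05, and the other 18 on both sides, from -0.21 to 0.26.

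The other measured transferases were split. Of 18 genes 7 had a lower and 11 a higher mean, with a median of 0.02. None passed the test, and 3 stood at an unadjusted p under 0.05, against 12.4% of all genes, so that count was near the background. The split went with level: the 4 genes at or above the median level, Gstm7, Gstt3, Gstz1 and Gdap1, had lower means, while of the 14 dimmer genes 3 had a lower and 11 a higher mean. With quantile normalization the median of the 18 was -0.03, and Gstm6, Gstp3 and Gsto2 turned negative. Gsta1, Gsta2 and Gstp2 have no probe set of their own in the annotation and were not analysed here. The 3 at an unadjusted p under 0.05 were Gstt4 at 0.22 (SE 0.07, adjusted p = 0.304), Ltc4s at 0.26 (SE 0.11, adjusted p = 0.386) and Gstt3 at -0.14 (SE 0.06, adjusted p = 0.379). Gstt4 read 5.52, 5.44 and 5.48 in knockout arrays and 5.21, 5.39 and 5.19 in wild-type arrays. Its groups did not overlap, as in 17.8% of all genes. Its neighbours in the theta row on chromosome 10 were Gstt1 at -0.07 and Gstt2 at 0.03, with Gstt3 at the other end. Thus the 4 theta genes were split, 2 with a lower and 2 with a higher mean.

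Among the rest, Gstm3 stood at -0.21 by its brighter probe set, at -0.10 by its other one and at -0.16 as their mean, and the brighter one at -0.11 without knockout replicate 1. Gstm7 stood at -0.10, Gdap1, a mitochondrial protein with a transferase fold, at -0.09, and Gstz1, which isomerises maleylacetoacetate in tyrosine breakdown, at -0.06. Gstcd was at -0.02 and Gsta3 at -0.01. Gsto2 was at 0.01, Gstp3 at 0.02, Hpgds, the sigma-class prostaglandin D synthase, at 0.05 and Gstm4 at 0.06. Over all 28 measured transferases 17 had a lower and 11 a higher mean, with a median of -0.06.

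The microsomal family was split by sign. Mgst1 and Mgst3 had lower means, while the 4 other measured MAPEG genes had higher means. Mgst2, a leukotriene C4 forming relative, stood at 0.16 (SE 0.08) and Ltc4s, leukotriene C4 synthase, at 0.26 (SE 0.11). Ptges, prostaglandin E synthase, stood at 0.15 (SE 0.10) and Alox5ap, the partner protein of 5-lipoxygenase, at 0.09 (SE 0.06). None of the 6 passed the test, with adjusted p-values from 0.301 to 0.563. All 4 relatives were below the median level and both Mgst1 and Mgst3 above it, and the part of level in this split was not tested. Mgst2 was at 0.09 without knockout replicate 3, and Ptges at 0.07 without knockout replicate 1 and 0.25 without wild-type replicate 1. With the covariate on Y-linked genes given further on, Mgst2 stood at -0.06, Ptges at 0.46 and Ltc4s at 0.17.

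This split was looked at within arrays after the values had been seen. An equal shift of all genes of an array cancels there, but a shift that depends on level does not. Such a shift was present: 7183 of 9969 brighter genes had a lower mean, and 6315 of 9969 dimmer genes a higher mean. The mean log2 signal of Mgst1 and Mgst3 minus that of the 4 relatives was 1.80, 1.86 and 1.65 in knockout arrays and 2.15, 2.07 and 2.30 in wild-type arrays. The groups did not overlap, with means of 1.77 ± 0.11 in knockout arrays and 2.17 ± 0.11 in wild-type arrays (SD, n = 3 each). The gap between the genotypes was -0.40. The genes were grouped with their values known, lower ones against higher ones. The direction of the gap was thus fixed by the grouping, so it adds no support to the split, and no p is given.

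The mean deviation of the 10 genes from each gene's own average was -0.08, -0.02 and -0.12 in knockout arrays and 0.05, 0.04 and 0.12 in wild-type arrays. The knockout arrays lay below 0 and the wild-type arrays above it. Each gene was centred on its own mean, and all 10 had a lower knockout mean. The signs of the group averages were thus fixed and add no support. Wild-type replicate 3 held the highest of the 6 values for 7 of the 10 genes. Knockout replicate 1 held the lowest of the 6 for 5 genes and knockout replicate 3 for 4. Over the 45 pairs of genes, 38 had a positive correlation across the 6 arrays, with a median Pearson r of 0.37, where the shared genotype difference and the shared arrays enter each pair. The same share over pairs of other genes of like level was not computed, so this count does not set the transferases apart. The closest pair was Gstm1 and Mgst1 (r = 0.964), and the most opposed was Gsto1 and Mgst3 (r = -0.487).

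**Figure D3:**
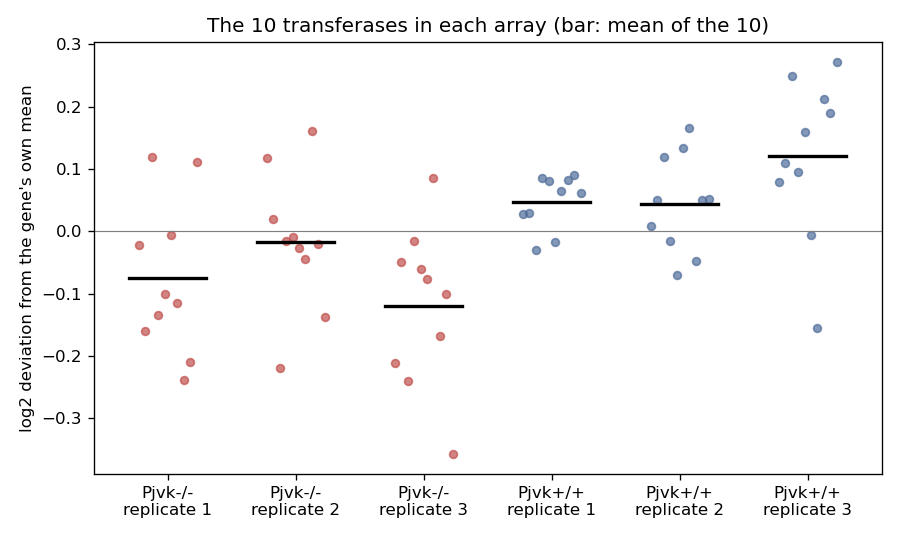
Each point is 1 of the 10 genes, as the log2 deviation from its own mean over the 6 arrays (vertical axis), by array, with the mean of the 10 as a bar. The bars lie at -0.08, -0.02 and -0.12 for Pjvk-/- and at 0.05, 0.04 and 0.12 for Pjvk+/+, with single genes on both sides of 0 in every array.

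Y-linked signals were lower in the knockout arrays. The mean of Kdm5d, Eif2s3y and Uty was 7.58, 7.51 and 7.39 in knockout arrays and 8.05, 7.86 and 7.65 in wild-type arrays. The groups of this mean did not overlap, as in 17.8% of single genes. Taken singly, Kdm5d and Uty were apart. Eif2s3y overlapped, with 8.16 in knockout replicate 1 against 8.15 in wild-type replicate 3. None of these genes passed limma's test (adjusted p from 0.241 to 0.337). Within the wild-type, replicate 3 had the lowest Y-linked level and the highest mean of the transferases. With that level entered as a covariate, the median of the 10 genes was -0.20, Gsto1 stood at 0.05 and the other 9 below 0, and none passed the test. Gsta4 was at -0.03 in that fit, Gstm1 at -0.21, Gstp1 at -0.19 and Gstk1 at -0.26. Since the Y-linked level separates the genotypes, the 2 cannot be told apart in such a fit.

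Of the 11 marker lists, 2 had sums that did not overlap between the genotypes. Among single genes 17.8% had groups that did not overlap, so that count was near the background. The summed signal of 7 melanocyte markers ran from 9.56 to 9.74 in knockout arrays and from 9.97 to 10.17 in wild-type arrays, with Dct the called member; 4 of the 7 were lower and 3 higher (median -0.10). That of 7 endothelial markers ran from 11.24 to 11.38 in knockout arrays and from 11.41 to 11.46 in wild-type arrays, with 6 of 7 lower. Of 8 spiral ligament fibrocyte markers 7 were lower, with sums from 13.67 to 13.80 in knockout arrays and from 13.79 to 13.89 in wild-type arrays. All 5 measured bone markers were higher, with sums from 11.77 to 12.50 in knockout arrays and from 11.75 to 12.01 in wild-type arrays. The summed macrophage markers overlapped, from 10.19 to 10.37 in knockout arrays and from 10.28 to 10.31 in wild-type arrays. Of 8 skeletal muscle markers 7 were higher (median 0.17), with sums from 11.81 to 11.86 in knockout arrays and from 11.82 to 11.89 in wild-type arrays. The medians of the myelin (5 of 8 measured), neuron (8 of 8) and erythroid (3 of 7) markers were 0.02, -0.01 and 0, and those of the hair cell and supporting cell markers were 0.03 and 0.07. The part of any of these cells in the transferase values was not tested.

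**Figure D4:**
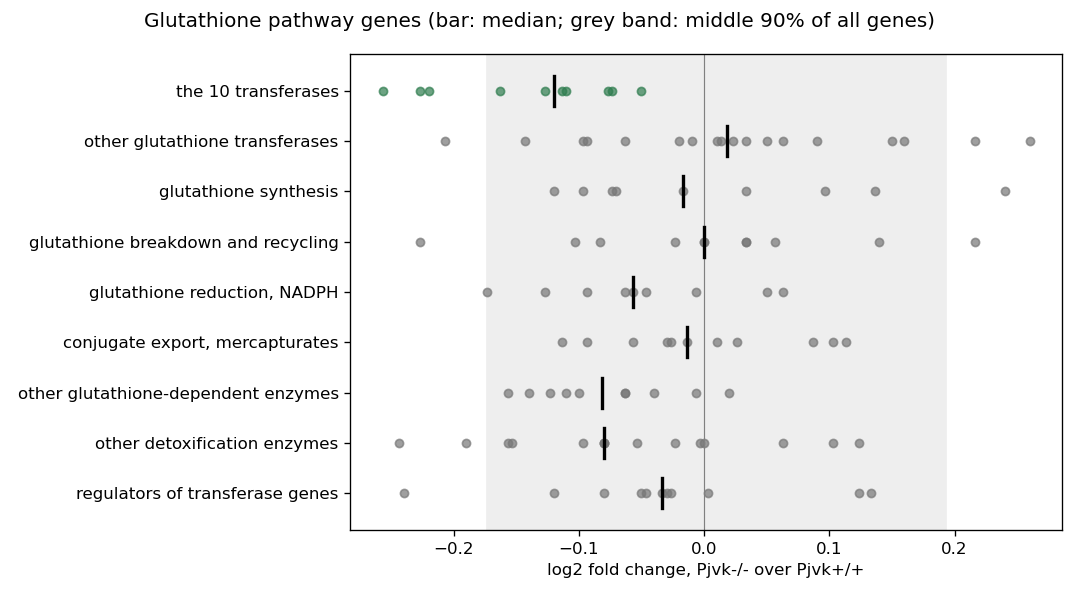
Log2 fold changes of Pjvk-/- over Pjvk+/+ (horizontal axis) for the 10 genes (green) and for the listed genes of the glutathione pathway (grey), 1 point per gene, with the median as a bar and the middle 90% of all genes as a grey band. The median of the 10 is -0.12, and those of the other lists run from -0.08 to 0.02.

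The genes around the transferases gave no call either. None of the 94 measured genes of the 8 lists, the 18 other transferases included, passed limma's test, and 10 of them stood at an unadjusted p under 0.05, where 12.4% of all genes did. Glutathione synthesis had 5 genes with a lower and 4 with a higher mean (median -0.02). Slc7a11, the cystine carrier that feeds synthesis, read 9.88, 9.68 and 9.80 in knockout arrays and 9.61, 9.57 and 9.46 in wild-type arrays, at 0.24 (SE 0.07, adjusted p = 0.278). Gclm, the modifier subunit of the rate-limiting ligase, read 8.73, 8.72 and 8.74 in knockout arrays and 8.90, 8.79 and 8.86 in wild-type arrays, at -0.12 (SE 0.05, adjusted p = 0.412). Both were apart between the genotypes, in opposite directions, where 17.8% of all genes were apart. They were named for the smallest unadjusted p of their list, so their separation goes with that choice.

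The breakdown and recycling list had 4 genes with a lower and 5 with a higher mean (median 0). Ggct, the gamma-glutamylcyclotransferase, read 6.76, 6.61 and 6.68 in knockout arrays and 6.84, 6.92 and 6.97 in wild-type arrays, at -0.23 (SE 0.06, adjusted p = 0.273). Ggt6, of the gamma-glutamyltransferase family, stood at 0.22 (SE 0.08). In the list of glutathione reduction and NADPH supply 7 of 9 genes had a lower mean (median -0.06), with Gsr, glutathione reductase, at -0.13 and Me1, malic enzyme, at -0.09. Of the other glutathione-dependent enzymes 9 of 10 had a lower mean (median -0.08), among them the glutaredoxins Glrx at -0.12 and Glrx5 at -0.11. Beside these counts, 53.8% of all genes and 72.1% of those at or above the median level had a lower mean. The list of conjugate export and mercapturate formation was even, 6 with a lower and 5 with a higher mean (median -0.01), with the transporters Abcg2 at -0.11 and Abcc3 at 0.10.

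Other detoxification enzymes had 11 genes with a lower and 3 with a higher mean of 15 (median -0.08). Nqo1, a quinone reductase and a textbook NRF2 target, stood at -0.24 (SE 0.08), but at -0.07 with the Y-linked covariate and at -0.16 without knockout replicate 3. Ephx1, the microsomal epoxide hydrolase, read 8.71, 8.82 and 8.83 in knockout arrays and 8.99, 8.89 and 9.05 in wild-type arrays, at -0.19 (SE 0.06, adjusted p = 0.330). Among the regulators 8 of 11 had a lower mean (median -0.03). Nfe2l2 itself read 8.46, 8.54 and 8.40 in knockout arrays and 8.76, 8.63 and 8.73 in wild-type arrays, at -0.24 (SE 0.06, adjusted p = 0.241). Its groups did not overlap, as in 17.8% of all genes, and it was named for its small unadjusted p. Nfe2l2 lies on the chromosome of Pjvk. Rxra, a nuclear receptor, stood at -0.12 (SE 0.06, adjusted p = 0.413), and it too lies on the chromosome of Pjvk. So does Ptges of the MAPEG genes. How far each lies from Pjvk was not examined.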

How the data were processed

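Total RNA (100 ng per sample) of the organ of Corti was labelled and hybridised by the authors, 1 array per sample. The deposited values are on a log2 scale, 1 per probe set, and Affymetrix Expression Console is the tool in the submitters' processing notes (version not stated). How the authors summarized and normalized the log2 values, and on which genome build, is not given in the sources used here.

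Of 35557 probe sets, 21789 had 1 gene symbol in the platform annotation, 1621 had several and 12147 were not listed there; only the first were used. Symbols were updated by gene identifier (21698 matched) from a gene table of GRCm38.p6. Per gene the probe set with the highest mean was kept. The test was limma (version 3.58.1, R version 4.3.3; lmFit, eBayes) over 19938 genes with no covariate, with Benjamini-Hochberg adjustment and a call at an adjusted p under 0.05. All adjusted p-values come from that fit (4 residual and 4.59 prior degrees of freedom). SD and SE are in log2 units, and the 95% intervals are unadjusted. The number of arrays limits the precision. No batch is named in the labels.

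The members, gene lists and marker lists were chosen with earlier results of these data known. Named are the 10 members, the other transferases, for each further list up to 3 genes of smallest unadjusted p (2 are given), Pjvk, and the 3 genes of most similar pattern. Genes outside this rule are named only as markers or as Y-linked genes. Alternatives were other normalizations, filters on dim genes, other handling of probe sets, an intensity trend, a Y-linked covariate, the replicate number as a block, and leaving out each array.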

Additional observations from a re-analysis of the deposited data

How the results depend on the processing

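No transferase among the 10 was called under any of the 16 alternatives run. Their count with a lower mean was 10 or 9, or 7 of the 7 left above the median level. Their median was -0.083 with quantile normalization, -0.086 with cyclic loess and -0.20 with a Y-linked covariate, and lay between -0.16 and -0.087 with 1 array left out. With quantile normalization Gsta4 was at -0.026, Gstm1 at -0.078, Gstm5 at -0.056 and Gstp1 at -0.068, each over 1.5 times smaller, and with cyclic loess at -0.028, -0.079, -0.056 and -0.064. The count with groups apart was 1 with median centring and ran from 2 to 5 with 1 array left out. The share of all genes with groups apart was not computed for these settings. Groups separate more easily with 1 array fewer, so a higher count there is no stronger result. Single members with a higher mean in an alternative were Gsto1 (0.046 with the covariate; -0.14 to 0.02 with 1 array left out) and Gsta4 (-0.155 to 0.01 with 1 array left out).

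Over all genes, 7 were called in the main analysis, 20 without genes under the 25th percentile of level, 45 without those under the median, 112 with an intensity trend and robust priors (where Pjvk passed, adjusted p = 0.0207, at -0.59), 0 with the covariate, 1 with the replicate block and 2 to 6 with 1 array left out. Fewer genes tested is part of the filters' construction; otherwise the cause was not tested. The replicate block left the median of the 10 at -0.12. Samples of the same number shared little: correlations of their deviations were 0.08, 0.02 and -0.01 for replicates 1 to 3, and not every sample correlated best with its own number.

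List medians moved by more than the spread between arrays in these cases. With quantile normalization they were -0.028 for the other transferases, 0.034 for breakdown and recycling, -0.0039 for reduction and NADPH supply, 0.016 for conjugate export, -0.030 for the other glutathione-dependent enzymes, -0.047 for other detoxification and 0.0033 for the regulators. With cyclic loess they were -0.023, 0.030, -0.0029, 0.023, -0.033, -0.042 and 0.0031 in the same order. The median of the other transferases was 0 above the 25th percentile and -0.095 above the median level. With the covariate, breakdown and recycling stood at -0.037 and conjugate export at -0.045. With 1 array left out the medians ran from -0.0025 to 0.054 for the other transferases, -0.075 to 0.055 for synthesis, -0.033 to 0.043 for breakdown and recycling, -0.090 to -0.048 for other detoxification and -0.063 to -0.010 for the regulators.

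Genes near 0 turned sign. With quantile normalization Gstm6 was at -0.033, Gstp3 at -0.035 and Gsto2 at -0.036; with cyclic loess they were at -0.026, -0.033 and -0.038. With the covariate Gsta3 was at 0.036, Gsto2 at -0.083, Mgst2 at -0.065, Me1 at 0.0057 and Glrx at 0.043. With 1 array left out Gsta3 ran from -0.082 to 0.058, Gstm6 from -0.048 to 0.087, Gstp3 from -0.040 to 0.088, Gsto2 from -0.048 to 0.077, Gstcd from -0.060 to 0.040 and Hpgds from -0.013 to 0.092. The cause was not tested.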

Other observations

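Of 9760 searched genes, all non-members from the brighter part of the array, the 3 whose values over the 6 arrays were most like the mean of the 10 transferases were Eri3, an exoribonuclease family gene (Pearson r = 0.991), Prkag1, a regulatory subunit of the AMP-activated kinase (r = 0.991), and Dapl1 (r = 0.991). All arrays of both genotypes enter these values, so the genotype difference is part of the likeness, and 4.34% of the genes searched had an r above 0.9. Prkag1 read 9.60, 9.67 and 9.58 in knockout arrays and 9.77, 9.74 and 9.84 in wild-type arrays. Dapl1 read 7.08, 7.21 and 7.03 in knockout arrays and 7.43, 7.37 and 7.59 in wild-type arrays, a log2 difference of -0.36 (SE 0.08, limma adjusted p = 0.184). Eri3 differed by -0.13 (SE 0.06, limma adjusted p = 0.405). In all 3 the groups were apart, as in 17.8% of all genes, and none passed the test. The 3 were picked for likeness to a mean whose groups were apart, so their separation follows from the choice.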
